A study of Mus musculus with 10 samples.

Results

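RING and TRIM ubiquitin ligases were taken as the genes whose symbols start with Rnf or Trim followed by a digit, without the muscle TRIM genes Trim54, Trim55, Trim63 and Trim72. This rule found 148 of the 21098 genes in the deposited table, 85 RNF and 63 TRIM genes, all protein coding. The choice used symbols only and no measured value. The symbols name a family and not an activity, so a few members, such as Trim44, lack a RING domain.

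Gastrocnemius (GAS) of diet-induced obese (DIO) mice was compared by bulk RNA-seq between 5 libraries of mice given an anti-miR-22 antisense oligonucleotide (ASO; RES-010 in the labels) and 5 libraries of mice given saline, the vehicle (CTRL). All were wild-type C57BL/6J males that started a high fat diet at 9 weeks of age, were treated from 9 weeks later and stayed on the diet during treatment. Body weight, also that at the start of treatment, was not analysed here, and the groups are not taken as matched for it. The ASO was given under the skin at 10 mg/kg and CTRL mice received a matched volume of 0.9% saline, once a week for 14 weeks in both groups. The comparison asks which genes of obese muscle differ in level between mice given the ASO and mice given saline. No group received an oligonucleotide of another sequence, so miR-22 inhibition and other effects of the compound cannot be told apart. Nothing in the labels says that each library is a separate mouse, so p-values measure the spread between these libraries.

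Ubiquitin ligases choose the proteins that a cell marks with ubiquitin. A RING domain holds the ubiquitin-loaded E2 enzyme next to the substrate, RBR ligases first take the ubiquitin onto a cysteine of their own, and TRIM proteins join a RING to B-box and coiled-coil domains and a C-terminal domain that differs between classes. In muscle, ligases of this kind are best known for tagging myofibrillar proteins for the proteasome, while most RNF and TRIM proteins act elsewhere, on receptors, chromatin, ribosomes, the endoplasmic reticulum and innate immune signaling.

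What the table counts bears on every value below. The authors counted read pairs on segments of at most 500 bp that end at the annotated 3′ end of a transcript, so a gene can have several segments, one at its most distal 3′ end and others upstream of it. They gave biases in coverage as the reason for this restriction. What part the coverage and RNA quality of the libraries have in differences between segments was not tested. The 148 genes have 386 segments, and 203 of these drew at least 1 count. Values behave as if strand was used in the counting. Segments of both strands together fully cover 270 segments that do have bases of their own on their strand, and these hold 32548 counts. The 17994 segments without a base of their own on their strand hold 9181 counts. A gene with overlapping segments therefore loses reads, and 0 counts do not show that it is silent.

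MicroRNAs pair with 3′UTRs through the seed at their bases 2 to 8, and the sequence that the ASO blocks in treated mice is miR-22-3p (RefSeq, GRCm38.p6, chr11:75463772-75463793, plus strand), shown with its seed in capitals.
miR-22-3p: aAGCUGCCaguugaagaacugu
The seed match GGCAGCT was sought on the transcript strand of each gene's longest annotated 3′UTR on GRCm39. It was present in 13 of the 60 tested members, or 21.7%, and in 1688 of the 7777 tested genes with a 3′UTR, also 21.7%. Among members that passed the test in the gene comparison described next, 3 of 10 that were higher and 3 of 11 that were lower had a match. The matches of these 6 genes are shown in capitals in windows of 30 bases of GRCm39, because they are the places where miR-22 could pair with a member that moved.
Rnf187 (chr11:58823882-58823888, minus strand): tgggaccacttGGCAGCTcggaagcccctg
Trim8 (chr19:46504475-46504481, plus strand): aagccctggatGGCAGCTctttgctcgccc
Trim44, upstream match (chr2:102133899-102133905, minus strand): tgtccctccctGGCAGCTagcaaacattcc
Trim44, downstream match (chr2:102133294-102133300, minus strand): aaagctttaggGGCAGCTaacatgtgtatg
Rnf121 (chr7:101671345-101671351, minus strand): aaagtcttccaGGCAGCTcaacttaactca
Rnf214 (chr9:45773250-45773256, minus strand): tatggcttgtgGGCAGCTggctgggccagc
Rnf6 (chr5:146147128-146147134, minus strand): gaacaagctccGGCAGCTgccttgtctgca
Both Trim44 matches are followed by an A on the transcript. None of the 7 lies inside a counted segment. The median log2 fold change was −0.10 over the tested members with a match and −0.01 over those without, beside −0.01 and −0.04 over all tested genes. The share of members with a match equals that of all genes, and a match is a description of the sequence only.

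Of the 148 members, 60 passed edgeR's filter on low counts and were tested among 7813 genes. Another 54 had between 1 and 99 counts over the 10 libraries (median 7) and were not tested, and 34 had 0 counts. Of the genes at 0, 7 have no base free of other segments. In the other 27 a count of 0 allows up to 1.87 CPM in the shallowest library and 1.14 CPM in the deepest, for counting error only. That limit holds for countable reads alone. Rnf133 has 5 free bases and Rnf152 has 6, so the limit does not bound the level of such genes. Library totals were between 1606909 and 2116720 counts in CTRL and between 2239186 and 2632560 with the ASO, so every treated library was deeper. Members together drew 7948 to 10856 counts per library. Summed over members, ASO libraries had 4447 ± 274 CPM and CTRL libraries 4559 ± 239 CPM (mean ± SD of 5 libraries), and the groups overlapped. Neither Mir22 nor its host gene Mir22hg is in the table, so the target of the ASO could not be used to check the labels.

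The label GAS was compared with marker lists. Of 11 skeletal muscle markers, 4 were tested and 3 (Mylpf, Tnnt3 and Mb) were at 0 counts. The summed level of the list was 84652 to 130028 CPM with the ASO and 40607 to 79771 CPM in CTRL, without overlap, and Ckm and Actn3 were higher. Summed levels overlapped between the groups for macrophage markers (79.7 to 622 CPM with the ASO, 296 to 1848 CPM in CTRL, Adgre1 and Cd163 at 0 counts), adipocyte markers (751 to 3728 and 890 to 13862 CPM) and fibroblast markers (70.7 to 469 and 247 to 489 CPM, Dcn at 0 counts). Of the tested genes in these lists, C1qc and Mrc1 (macrophage, log2 fold changes −1.61 and −1.51) and Lum (fibroblast, −1.72) were lower (edgeR BH-adjusted p = 0.046, 0.036 and 0.0014). The other tested macrophage markers did not pass, with Cd68 at 0.26 and Csf1r, C1qa, C1qb and Lyz2 between −1.16 and −0.57. Nor did the fibroblast markers Col1a1, Col1a2 and Col3a1, at 0.36, −0.04 and −1.18. Lum was between 19.8 and 81.0 CPM with the ASO and between 133 and 208 CPM in CTRL, without overlap. CTRL library 3 stood apart in these markers, since the next highest CTRL libraries had summed levels of 691 CPM for macrophage and 2427 CPM for adipocyte markers. Without it, C1qc and Mrc1 did not pass (−1.04 and −0.92, edgeR BH-adjusted p = 0.13 and 0.10), Lum did (−1.61, edgeR BH-adjusted p = 0.0026), and 9 members were higher and 11 lower, as against 10 and 11 with it. The summed levels of endothelial, Schwann cell, blood and lymphocyte markers overlapped as well. In bulk tissue, fewer cells of a type and less RNA per cell cannot be told apart, and the part that the muscle, macrophage and fibroblast markers have in the results below was not tested.

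Ubiquitin ligases of both families moved in both directions. With the ASO, 10 members were higher and 11 were lower (quasi-likelihood test of edgeR, with p adjusted over all genes after Benjamini and Hochberg, BH, and a threshold of 0.05). This is 35% of the 60 tested members, beside 29.2% of all genes tested, of which 11.8% were higher and 17.4% lower. The median log2 fold change of the members was −0.01 and that of all genes −0.03. The 42 tested RNF genes had 6 higher and 8 lower, and the 18 tested TRIM genes 4 higher and 3 lower. All ASO libraries lay above all CTRL libraries for 6 members, beside 7.97% of all genes, and below for 11 members, beside 13.4% of all genes. Scaling by total counts in place of TMM moved the median of all genes to −0.21 and gave 7 members higher and 16 lower. Of the 21 members past the threshold, 9 (Rnf10, Rnf31, Rnf187, Rnf2, Rnf14, Rnf44, Rnf121, Rnf141 and Trim23) stayed past it under every other setting in which they could be fitted. Of these 9, only Rnf187 and Trim23 could be fitted on the most distal segment alone, the setting that left the fewest calls. The others did not face it. Rnf6, Rnf166, Trim26, Trim27, Trim41 and Trim44 each lost the call under 8 or more settings. The 39 members that did not pass had log2 fold changes from −0.55 to 0.53.

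**Figure D1:**
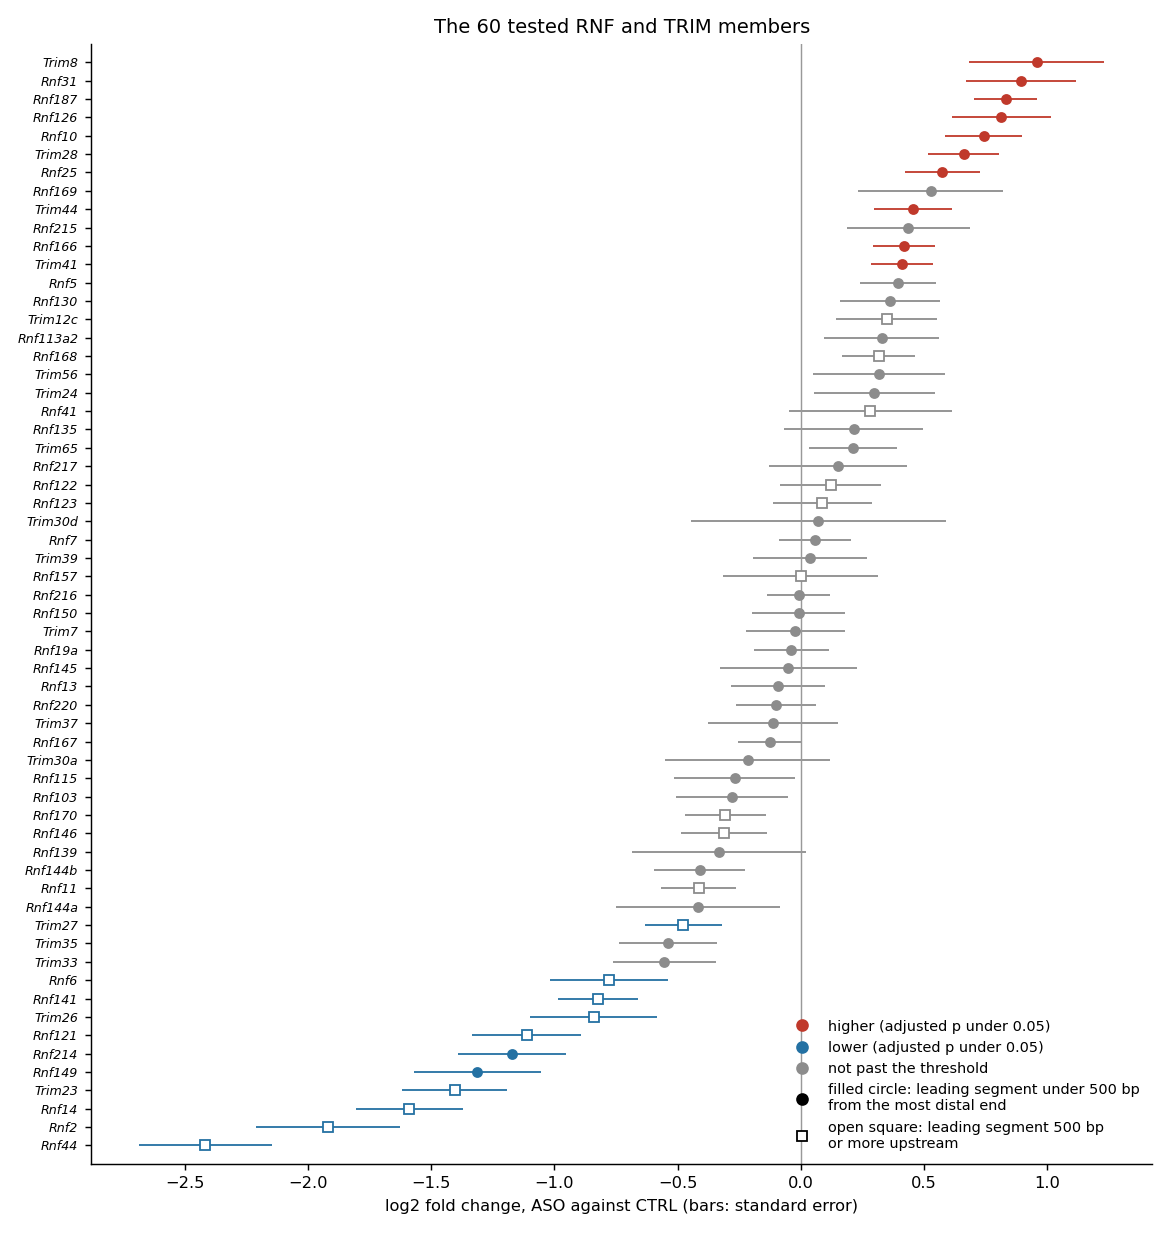
Log2 fold change (x axis, ASO against CTRL, bars for the standard error) of each of the 60 tested RNF and TRIM members (y axis), coloured by the edgeR call, with the symbol showing where the segment with most counts of that gene lies. Every member that was higher was counted mainly under 500 bp from its most distal end, and 9 of the 11 that were lower were counted mainly 500 bp or more upstream.

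Rnf44, Rnf2 and Rnf14 had the steepest decreases of the tested members. Rnf44 (ENSMUSG00000034928) was at 5.79, 5.10, 3.81, 4.59 and 6.13 CPM in ASO libraries 1 to 5 and at 22.6, 15.9, 28.2, 35.99 and 34.3 CPM in CTRL libraries 1 to 5. The lowest CTRL library was above the highest ASO library. Its mean fell from 27.4 ± 8.33 to 5.08 ± 0.932 CPM (SD of 5 libraries), and its log2 fold change was −2.42 (standard error 0.27, edgeR BH-adjusted p = 1.4e-04). Rnf2, the catalytic RING of the Polycomb repressive complex that ubiquitylates histones, had 7.24, 5.52, 3.38, 2.92 and 5.19 CPM with the ASO and 16.0, 12.1, 19.8, 21.8 and 22.5 CPM in CTRL. These groups were also apart, with a log2 fold change of −1.92 (standard error 0.29, edgeR BH-adjusted p = 7.2e-04). Rnf14, an RBR ligase and androgen receptor coactivator, was between 43.1 and 103 CPM with the ASO and between 196 and 278 CPM in CTRL (log2 fold change −1.59, edgeR BH-adjusted p = 4.2e-04). Rnf6, another ligase of the androgen receptor, had a log2 fold change of −0.78 (edgeR BH-adjusted p = 0.027), and its groups overlapped through CTRL library 3 at 18.8 CPM. The 3 tested genes of the list of TGF-beta and transcription RINGs, Rnf6, Rnf44 and Rnf14, were all lower, though Rnf6 lost its call under 8 other settings. Over all tested genes 17.4% were lower and 11.8% higher, and these shares stand beside each list count here and below. The lists hold few tested genes.

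In the list of chromatin and DNA damage RINGs, which holds Rnf2, 4 of 11 genes were tested and only Rnf2 passed. Rnf168, which extends ubiquitin marks at DNA breaks, averaged 31.4 ± 3.995 CPM in ASO libraries against 25.2 ± 2.23 CPM in CTRL libraries (SD of 5), so its log2 fold change was 0.32, a value that did not pass (edgeR BH-adjusted p = 0.13). Rnf8, which acts before Rnf168, had 3 to 9 counts per ASO library and 1 to 4 per CTRL library and was not tested. Rnf20 and Rnf40, the paired histone ligases, had 1 and 59 counts over all libraries, also too few.

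On the nuclear side of the TRIM family, Trim28 rose. Trim28, the corepressor of KRAB zinc finger proteins, was at 80.6, 83.3, 89.7, 73.1 and 76.9 CPM in the ASO libraries and at 55.7, 62.5, 45.0, 51.9 and 39.9 CPM in CTRL. No library of one group reached the other, and the log2 fold change was 0.66 (standard error 0.14, edgeR BH-adjusted p = 0.0050). Its relatives with a PHD finger and bromodomain gave other values. Trim24, a nuclear receptor cofactor, had a log2 fold change of 0.30 (edgeR BH-adjusted p = 0.38) and Trim33, which acts on Smad4, one of −0.55 (edgeR BH-adjusted p = 0.063). The NHL repeat genes Trim2, Trim3 and Trim32 were not tested. Trim2 had 1 to 11 counts per ASO library and 7 to 22 per CTRL library, Trim3 had 1 count and Trim32 had 0.

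Soluble ligases with named substrates included 3 increases among 7 tested genes, where 11.8% of all tested genes were higher. Rnf187 (ENSMUSG00000020496), a coactivator of the transcription factor AP-1, had the highest level per length of all tested members, at 757 CPM per kb of counted segment. It was at 460.1, 484, 538, 397 and 543 CPM with the ASO and at 281, 270.5, 250.0, 267 and 293 CPM in CTRL. The ASO group lay wholly above CTRL, at 484 ± 59.96 against 272 ± 15.9 CPM (SD of 5 libraries), with a log2 fold change of 0.83 (standard error 0.13, edgeR BH-adjusted p = 7.5e-04). Rnf10, which ubiquitylates proteins of the small ribosomal subunit, was at 256, 194, 208, 241 and 292 CPM with the ASO and at 141, 173, 112, 133 and 153 CPM in CTRL. Its groups were apart as well (log2 fold change 0.74, standard error 0.16, edgeR BH-adjusted p = 0.0042). Rnf25, which acts on stalled ribosomes, rose from 52.7 ± 6.09 to 78.4 ± 13.5 CPM (SD of 5 libraries; log2 fold change 0.57, edgeR BH-adjusted p = 0.014). Rnf7, the RING subunit of cullin-5 ligases, had the second highest level at 716 CPM per kb and a log2 fold change of 0.06 that did not pass (edgeR BH-adjusted p = 0.79). Rnf123, which degrades a cell cycle inhibitor, and Rnf146, which recognizes poly(ADP-ribosyl)ated Axin, did not pass either, with log2 fold changes of 0.09 and −0.31.

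Ligases of endosomes and receptor traffic had 1 increase among 5 tested genes, beside 11.8% of all tested genes. Rnf126, which works with BAG6 on mislocalized proteins, was at 194, 195, 288, 129 and 246 CPM with the ASO and at 112, 124, 94.9, 120.4 and 148 CPM in CTRL. ASO library 4 fell inside the CTRL range. The log2 fold change was 0.81 (standard error 0.20, edgeR BH-adjusted p = 0.010), at a level of 330.3 CPM per kb. Its paralog Rnf115 had a log2 fold change of −0.27 (edgeR BH-adjusted p = 0.43), with ASO libraries between 81.6 and 209 CPM and CTRL libraries between 115 and 191 CPM. Rnf11, a small RING protein that works with WW-domain ligases, had the third highest level at 411 CPM per kb. All its ASO libraries (253 to 414 CPM) were under all its CTRL libraries (434 to 518 CPM), yet the log2 fold change of −0.41 missed the threshold (edgeR BH-adjusted p = 0.059), which it reached with total counts, with limma-voom and with at least 10 counts in every library.

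Innate immune ligases gave increases in 2 of 4 tested genes, beside 11.8% of all tested genes. Rnf31, or HOIP, the catalytic RBR subunit of the complex that builds linear ubiquitin chains, was at 26.1, 21.2, 33.4, 28.4 and 32.1 CPM with the ASO and at 20.3, 14.0, 10.4, 19.5 and 11.8 CPM in CTRL. The groups came close without overlap (log2 fold change 0.89, standard error 0.22, edgeR BH-adjusted p = 0.011). Rnf166 rose from 113 ± 13.5 to 152 ± 13.9 CPM (SD of 5 libraries), with 1 overlap at 133 CPM in CTRL library 1 (log2 fold change 0.42, edgeR BH-adjusted p = 0.026). The related Rnf114, Rnf125 and Rnf138 had 5, 36 and 36 counts over all libraries and were not tested. Rnf213, the giant ATPase ligase, and Trim21, the antibody receptor of the cytosol, had 0 counts, on segments with 6 and 2 bases of their own.

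Among RBR ligases, Rnf31 was higher and Rnf14 lower of 7 tested genes. Rnf19a, or dorfin, averaged 49.99 ± 4.03 CPM in ASO libraries against 51.3 ± 10.3 CPM in CTRL libraries (SD of 5). Its paralog Rnf19b had 29 counts in all and was not tested. The pair Rnf144a and Rnf144b had log2 fold changes of −0.42 and −0.41, neither past the threshold (edgeR BH-adjusted p = 0.37 and 0.11).

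Membrane ligases included 2 decreases, where 17.4% of all tested genes were lower. Of 5 tested PA-TM-RING genes, a family with a protease-associated domain in the lumen, only Rnf149 passed. It was at 13.5, 16.99, 16.9, 12.5 and 8.02 CPM with the ASO and at 20.8, 29.8, 48.4, 37.8 and 33.1 CPM in CTRL, without overlap (log2 fold change −1.31, standard error 0.26, edgeR BH-adjusted p = 0.0030). The endosomal pair Rnf13 and Rnf167 had log2 fold changes of −0.09 and −0.12. Of 7 tested ligases of the endoplasmic reticulum and mitochondria, only Rnf121 passed, between 12.3 and 30.6 CPM with the ASO and between 40.1 and 49.6 CPM in CTRL (log2 fold change −1.11, edgeR BH-adjusted p = 0.0030). Rnf5, which tags misfolded proteins at the endoplasmic reticulum, had a log2 fold change of 0.39 short of the threshold (edgeR BH-adjusted p = 0.071), and its paralog Rnf185 had 0 counts and no base of its own.

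The remaining TRIM genes split in the same way. Trim23, which carries an ARF-type GTPase domain at its C-terminus, was at 52.1, 73.1, 55.8, 36.7 and 32.5 CPM with the ASO and at 123, 148, 103, 136 and 153 CPM in CTRL. The groups were far apart (log2 fold change −1.40, standard error 0.21, edgeR BH-adjusted p = 7.2e-04). In the same list of other C-terminal classes, Trim8, a regulator of cytokine signaling, rose from 9.63 ± 4.07 to 18.8 ± 3.01 CPM and Trim44 from 50.3 ± 7.76 to 69.0 ± 10.8 CPM (SD of 5 libraries; log2 fold changes 0.96 and 0.45, edgeR BH-adjusted p = 0.020 and 0.047). Of 10 tested PRY-SPRY genes, Trim41 was higher (log2 fold change 0.41, edgeR BH-adjusted p = 0.026) and Trim26 and Trim27 were lower (−0.84 and −0.48, edgeR BH-adjusted p = 0.028 and 0.036). None of the COS box genes was tested. Of the 22 members in no list, 3 were tested, and Rnf214 and Rnf141 were lower with log2 fold changes of −1.17 and −0.82 (edgeR BH-adjusted p = 0.0023 and 0.0030).

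**Figure D2:**
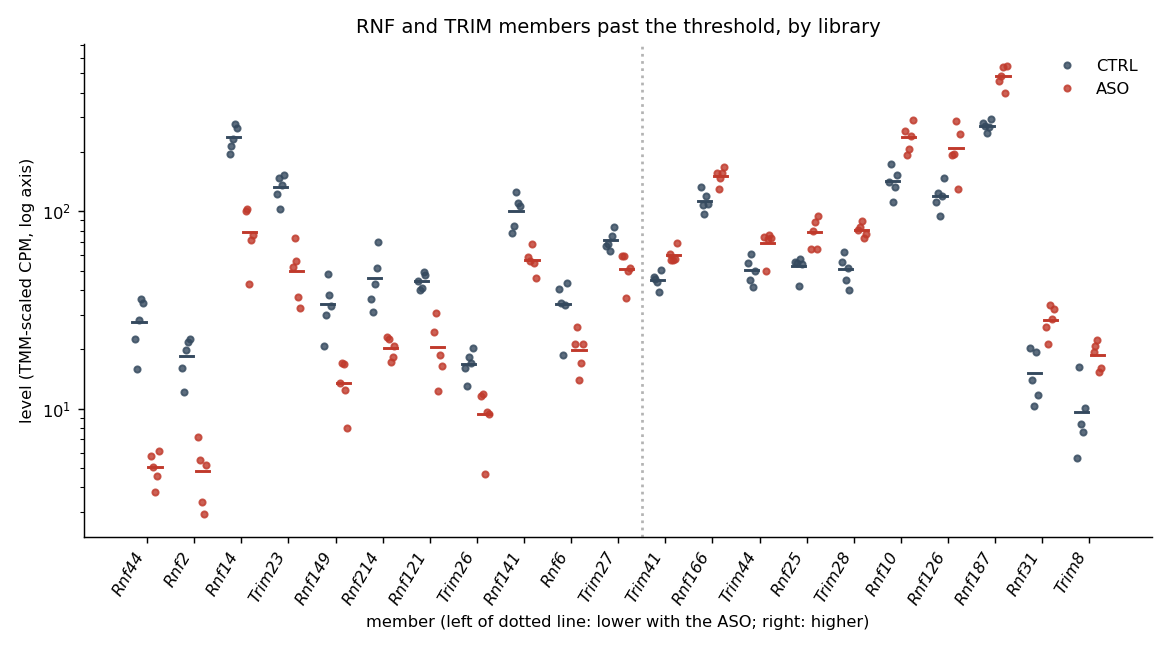
Level in each library (TMM-scaled CPM on a log axis; points are libraries, short lines are means of 5) of the 11 members that were lower and the 10 that were higher with the ASO. Rnf44, Rnf2, Rnf14 and Trim23 show wide gaps between the groups, and overlap is seen for Rnf6, Rnf166, Trim44, Rnf126 and Trim8.

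Single genes were also compared by a two-sided exact permutation test on log2(CPM + 1), in which the labellings of 5 against 5 libraries give no p under 0.0079. Of the 21 members past the edgeR threshold, 16 reached that value, and the 5 others, Rnf6, Rnf126, Rnf166, Trim8 and Trim44, had exact permutation p-values of 0.032, 0.016, 0.016, 0.024 and 0.032.

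The genes around the ligases were read from lists. Of 83 tested genes for ubiquitin, E1 and E2 enzymes and RING ligases with other names, 6 were higher and 19 lower, with a median log2 fold change of −0.07. This is 30.1% of them, near the 29.2% of all tested genes. Ubb, which encodes a polyubiquitin, rose (log2 fold change 0.50), and 3 of the 5 tested genes of the ubiquitin and E1 list fell, namely Uba6, Uba2 and Uba3 (−1.60, −0.58 and −0.64). Of 26 tested E2 genes, Ube2o was higher and 7 were lower, among them Ube2w (−1.81) and Ube2d3 (−0.63), an E2 that serves many RING ligases. The other tested Ube2d genes, Ube2d1 and Ube2d2a, did not pass (0.16 and 0.12, edgeR BH-adjusted p = 0.56 and 0.51). Ring1, the paralog of Rnf2 that serves as the RING subunit in its place in other Polycomb complexes, rose (log2 fold change 0.59). Of the 4 muscle TRIM genes left out by the rule, 3 were tested and Trim63, or MuRF1, and Trim72 were lower (log2 fold changes −0.77 and −0.72, edgeR BH-adjusted p = 0.019 and 0.0096).

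Members that rose and members that fell were mostly counted on different segments. The leading segment, the one with most counts, lay under 500 bp from the most distal end in all 10 that were higher and in 2 of the 11 that were lower (Rnf149 at the end itself and Rnf214 at 266 bp), beside 86.3% of the 920 higher and 35.6% of the 1363 lower genes of the whole table. Of the 10 members that were higher, 8 drew at least 98% of their counts from the most distal segment, and the other two, Rnf10 and Rnf31, from segments 367 and 20 bp short of it, with under 1% on the most distal one. Of the 11 that were lower, 9 drew under 5% of their counts from the most distal segment. Rnf44 was counted for 88.7% on a segment of 184 bp that ends 2166 bp upstream of its most distal end (chr13:54829378-54829561, minus strand, GRCm39), and Rnf2 for 97.4% on a segment of 194 bp that ends 13118 bp upstream (chr1:151346873-151347066, minus strand). In Rnf44, Rnf6, Rnf14, Trim26 and Trim27 the most distal segment has at most 4 bases free of other segments, so reads there could hardly be counted. The leading segments of Rnf10, Rnf25, Rnf31 and Trim27 belong to transcripts annotated for nonsense-mediated decay and overlap coding sequence by 205, 421, 151 and 446 bp. In Rnf2 and Rnf141 the most distal segment has 181 and 500 free bases and drew 5 and 7 counts.

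The poly(A) signal, AATAAA or its variant ATTAAA, tells the cleavage machinery where to end a messenger RNA, a short way before the cut. Ends of segments are shown for 4 genes whose segments moved apart and for Rnf187 and Rnf44, as the last 30 bases on the transcript strand of GRCm39, with the signal in capitals where the last 40 bases hold one. In these labels, last counted means the last segment with enough counts to be tested.
Rnf187, distal (chr11:58823114-58823143, minus strand): cagtgctgAATAAAgtggtttgctccagcc
Rnf44, upstream (chr13:54829378-54829407, minus strand): gcccctgcaataagcccctgcattgccaag
Rnf216, distal (chr5:142976648-142976677, minus strand): ttttgtgtaAATAAAtgtttgtgaacgctt
Rnf216, upstream (chr5:142977575-142977604, minus strand): tgttcccagtgcctgtgtcccctcctgtcc
Rnf170, last counted (chr8:26633870-26633899, plus strand): ttctttggAATAAAaatagtttatctaaaa
Rnf170, upstream (chr8:26632647-26632676, plus strand): ctgtcacattccaaaaaaaaaaagaaacaa
Rnf144b, distal (chr13:47401438-47401467, plus strand): tttagccccAATAAAtgtgagcaggaaacc
Rnf144b, upstream (chr13:47399864-47399893, plus strand): tgtataaaacatagaactctagaaaacttc
Rnf141, last counted (chr7:110412738-110412767, minus strand): ttcATTAAAagatagtctgaataacttgca
Rnf141, upstream (chr7:110414353-110414382, minus strand): gcacacacacacatgctaccccgttataga
A hexamer was present in 58.7% of all 52361 segments placed on the annotation. The leading segment held one in 9 of the 10 members that were higher and in 5 of the 11 that were lower. The like shares for the leading segments of all higher and lower genes were not computed, so this split is not read as particular to members.

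Segments were then tested one by one. Of 86 tested member segments, 16 were higher and 23 lower (edgeR BH-adjusted p under 0.05), together 45.3% of them, beside 16.0% and 24.7%, together 40.6%, of 10652 segments of all genes. Of the 48 member segments with a hexamer, 13 were higher and 3 lower (27.1% and 6.25%), beside 22.2% and 7.95% of those of all genes. Of the 38 without one, 3 were higher and 20 lower (7.89% and 52.6%), beside 8.40% and 45.1% of those of all genes. The median log2 fold change was 0.26 in the first class and −0.71 in the second, and over the segments of all genes it was 0.24 and −0.59. By position, 12 of the 35 most distal member segments were higher and 1 was lower (34.3% and 2.86%), beside 25.2% and 4.37% over all genes. Of the 38 that lie 500 bp or more upstream, 2 were higher and 22 lower (5.26% and 57.9%), beside 5.82% and 50.3% over all genes. Most distal segments had a median log2 fold change of 0.37 in members and 0.30 in all genes, and upstream ones −0.74 in both. The same directions by position and by hexamer were seen in the whole table.

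**Figure D3:**
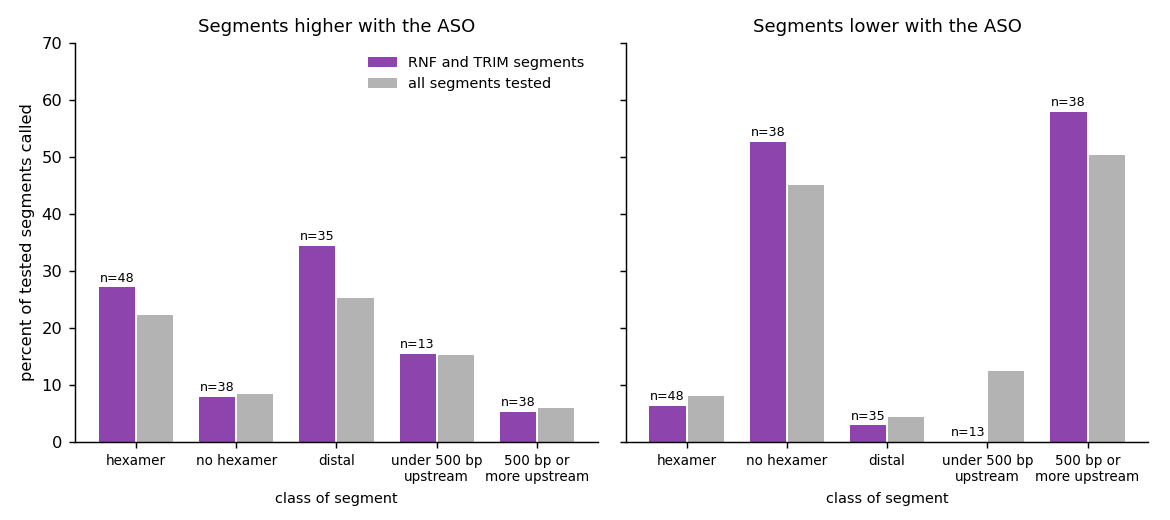
Percent of tested segments called higher (left) or lower (right) with the ASO (y axis, edgeR BH-adjusted p under 0.05) by class of segment (x axis), for RNF and TRIM segments beside the segments of all genes, with the number of tested RNF and TRIM segments over each bar. Among members and among all genes, segments with a hexamer and distal ones were called higher more often than lower, and those without one and upstream ones lower more often than higher.

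Segments of the same gene went in opposite directions in Rnf216, Rnf170 and Rnf11, the 3 members with 1 segment higher and another lower. These calls use the scaling over all segments. Scaled by most distal segments alone, the distal segments of Rnf216 and Rnf11 had log2 fold changes of 0.46 and 0.17 and did not pass (edgeR BH-adjusted p = 0.077 and 0.56), which ends the higher call in both. Rnf216 and Rnf170 were chosen for description after their values were seen. Rnf216, an RBR ligase also called TRIAD3, had the same summed level in both groups, 64.8 ± 6.68 CPM in ASO libraries against 65.2 ± 6.26 CPM in CTRL libraries (SD of 5). Its distal segment was at 34.8, 41.2, 57.9, 38.8 and 37.3 CPM with the ASO and at 29.2, 25.6, 22.2, 20.7 and 26.4 CPM in CTRL, without overlap (log2 fold change 0.80, standard error 0.19, edgeR BH-adjusted p = 0.0044). Its segment 927 bp upstream was at 20.3, 28.5, 12.3, 22.1 and 25.9 CPM with the ASO and at 37.7, 28.0, 39.5, 45.4 and 40.4 CPM in CTRL (log2 fold change −0.77, edgeR BH-adjusted p = 0.014). Only ASO library 2 rose above the lowest CTRL library on that segment.

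Rnf170, a ligase of the endoplasmic reticulum that degrades inositol trisphosphate receptors, rose on its last tested segment, which ends 7919 bp short of its most distal annotated end, from 31.3 ± 10.8 to 50.5 ± 6.59 CPM and fell on the segment 1223 bp before it from 43.3 ± 11.2 to 13.2 ± 4.28 CPM (SD of 5 libraries). The log2 fold changes were 0.73 and −1.67 (edgeR BH-adjusted p = 0.016 and 2.4e-04). Rnf11 rose on its distal segment (log2 fold change 0.49, edgeR BH-adjusted p = 0.048) and fell on the segment 1801 bp upstream, which holds 90.3% of its counts (−0.47, edgeR BH-adjusted p = 0.030). Rnf144b was at 14.0, 21.7, 6.77, 13.8 and 18.9 CPM with the ASO and at 49.0, 55.5, 42.5, 57.2 and 59.0 CPM in CTRL on the segment 1574 bp upstream (log2 fold change −1.77, edgeR BH-adjusted p = 1.7e-04). On its distal segment it overlapped between groups (log2 fold change 0.27, edgeR BH-adjusted p = 0.37), and the value was −0.04 when scaled by most distal segments alone (edgeR BH-adjusted p = 0.93). In Rnf141 the last tested segment had a log2 fold change of 0.28 and the 3 segments before it −2.08, −1.82 and −2.99, so the decrease of the gene came from those 3. Rnf14 and Trim23 differed from this picture, since no tested segment of theirs had a positive value. The 3 of Rnf14 were all lower (log2 fold changes −0.75, −2.05 and −2.90 from the last to the first, edgeR BH-adjusted p under 0.05), and of the 3 of Trim23 the last and the first were lower (−1.09 and −1.97) and the middle one, at −0.46, did not pass (edgeR BH-adjusted p = 0.31).

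**Figure D4:**
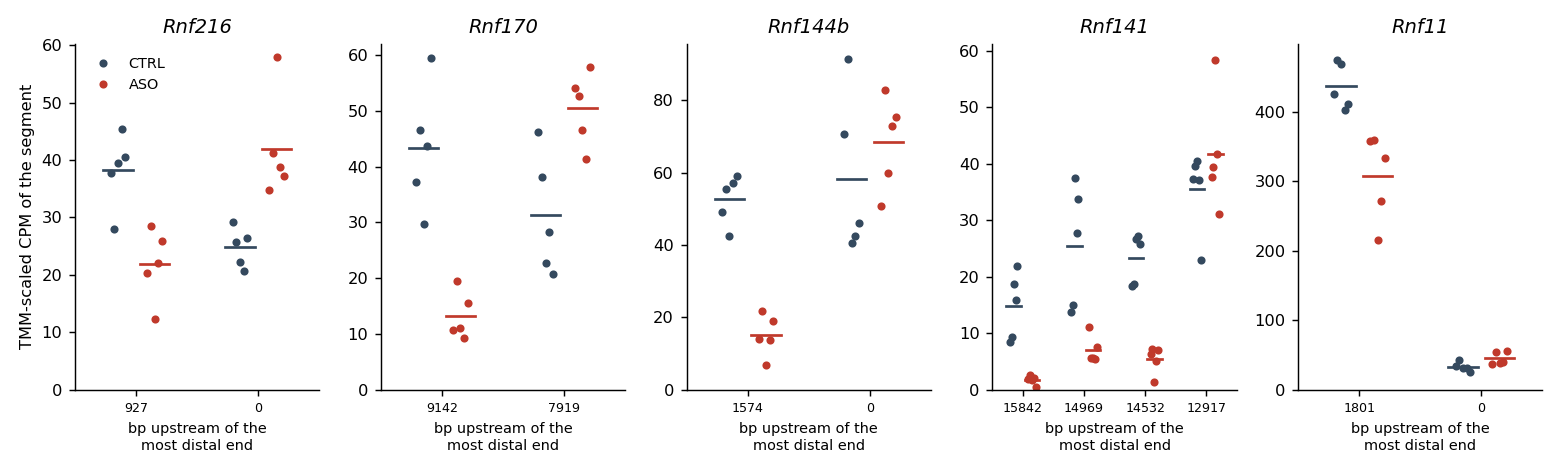
Level of each tested segment (y axis, TMM-scaled CPM; points are libraries, lines are means of 5) against its distance upstream of the most distal annotated end in bp (x axis), for Rnf216, Rnf170, Rnf144b, Rnf141 and Rnf11. In each gene the means of the upstream segments are lower with the ASO and the mean of the last segment is higher on this scale, which for Rnf144b turns to a log2 fold change of −0.04 when scaled by most distal segments alone.

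A test of the segments of a gene against each other, edgeR's diffSpliceDGE, covered 48 segments of 21 members. Relative to the rest of their gene, 7 were higher and 12 lower (BH-adjusted p under 0.05), in 12 genes, beside 8.05% and 22.4%, together 30.5%, of 5380 segments of all genes. None of the 12 relatively lower segments held a hexamer and none was the last tested segment of its gene. Of the 7 relatively higher ones, 5 held a hexamer and 6 were the last. The like shares among the usage calls of all genes were not computed, so these counts are not read as particular to members. The largest relative decreases were those of segments of Rnf141 (−2.20, edgeR BH-adjusted p = 2.6e-05), Rnf170 (−1.47, edgeR BH-adjusted p = 3.8e-05) and Rnf149 (−1.43, edgeR BH-adjusted p = 0.013) on the log2 scale. The last tested segment had a higher log2 fold change than the first in 20 of the 21 members, all but Trim12c, or 95.2%, beside 88.9% of 2272 genes.

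**Figure D5:**
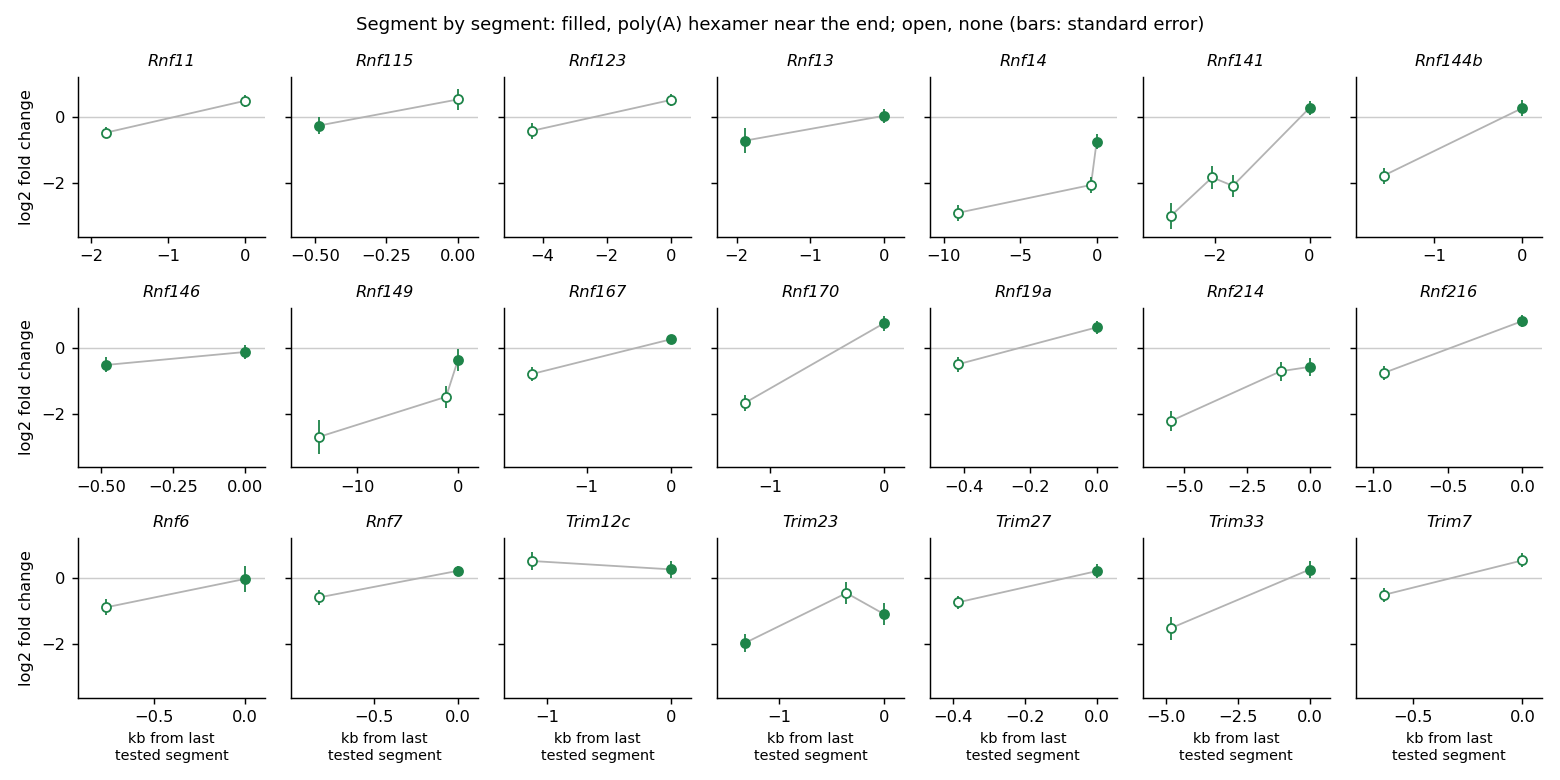
Log2 fold change of each tested segment (y axis, bars for the standard error) against its distance in kb from the last tested segment of the gene (x axis, scaled per gene), in the 21 members with at least 2 tested segments, filled where the end holds a poly(A) hexamer. The last segment lies above the first in 20 members, and Trim12c is the exception.

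When only the most distal segment was kept, the calls thinned out. Of 35 members tested among 5087 genes, 1 was higher and 2 were lower, beside 4.56% and 6.59%, together 11.1%, of all genes. Rnf187 kept its increase, with a log2 fold change of 0.54 (edgeR BH-adjusted p = 0.017), and Trim23 its decrease, with −1.40 (edgeR BH-adjusted p = 0.018). Trim35, named because it makes up that count, was lower with −0.80 (edgeR BH-adjusted p = 0.030), against −0.54 and short of the threshold in the sum over segments. The scale is set here by distal segments alone, and the other members that had risen on distal segments were smaller on it. Trim28 was at 0.38, Rnf126 at 0.51, Trim8 at 0.67, Rnf25 at 0.28, Rnf166 at 0.13, Trim44 at 0.15 and Trim41 at 0.12, none past the threshold (edgeR BH-adjusted p between 0.070 and 0.60). Of the 11 members that were lower, 9 had too few counts on the most distal segment to be tested on it, and Rnf149 had −0.72 there (edgeR BH-adjusted p = 0.18). Whether a member differed in the amount of its messenger or in which segment was covered cannot be told apart from these sums.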

How the data were processed

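RNA of GAS from DIO mice was sequenced in 5 ASO and 5 CTRL libraries made with a stranded mRNA kit. The deposited table holds read-pair counts, which the authors made by trimming with fastp, mapping to GRCm39 with STAR and counting with featureCounts on Gencode M25, on segments of at most 500 bp at transcript 3′ ends, with no scaling, before they used DESeq2 for their own tests. No strand option is given in the sources used here. The table has 52423 segments, of which 52361 were found by transcript ID in GENCODE M39, all on the same chromosome and strand and 52360 inside their transcript, and the 62 others hold 0.0197% of the counts. As these coordinates match GENCODE M39 on GRCm39, it is uncertain which annotation version the counting used. Another 4 columns of per-sample values were not used here.

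Counts were summed per gene, scaled by TMM and tested with edgeR 4.0.16 (quasi-likelihood test, filter by group, Benjamini-Hochberg over all genes, adjusted p under 0.05) in R 4.3.3. Levels are TMM-scaled CPM, and levels per kb divide by the bases of counted segments that no other segment of that strand covers. The most distal segment of each gene, and each segment on its own, were fitted in the same way, and segments of a gene were compared with diffSpliceDGE. Coordinates are 1-based on GRCm39, except that of miR-22. Alternatives were DESeq2 1.42.0 with its default settings, limma-voom (limma 3.58.1), other scaling, other filters on low counts, libraries drawn down to the smallest one, the replicate number as a block, and each library left out. In simulated counts for 7953 tested genes, edgeR recovered 85 of 100 genes changed by 1 on the log2 scale and 100 of 100 changed by 2, with 7 false calls. The segment usage test recovered 149 of 200 segments changed by 2. Changed genes were drawn from the better-counted ones, with balanced directions and the same dispersion for all. Recovery in the real counts can therefore differ. Library totals of 1606909 to 2632560 counts set the precision, and limits drawn from 0 counts take 3 counts as the floor.

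The members, gene lists, paralog sets and tests were chosen with earlier results of these data known. Genes named are the members past the threshold with a mean of at least 10 counts (up to 12 per direction), the 5 with the highest level per kb, the paralog sets given above whether or not they passed (some genes are not reported here), and Rnf213, Rnf123, Rnf146, Rnf10 and Trim21. Rnf170, Rnf216 and Trim35 were added after their values were seen. Tables, exact tests and plots were made in Python 3.11.15 with pandas 2.3.3, numpy 2.4.6, matplotlib 3.10.9 and scipy 1.17.1.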

Additional observations from a re-analysis of the deposited data

Results flagged for a closer look

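A gap to the nearest library that exceeds Dixon's 95% critical value for 5 libraries (0.71 of the range) was found in 2 of the 76 groups checked, where chance flags about 5%. Rnf25 was at 42.0 CPM in CTRL library 3, the lowest of its group, with the other CTRL libraries between 53.9 and 57.2 CPM. Trim44 was at 49.7 CPM in ASO library 2, the lowest of its group, with the other ASO libraries between 72.7 and 75.6 CPM.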

How the results depend on the processing

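The counts of 10 members higher and 11 lower stayed within 1.5 times under RLE and upper quartile scaling, total counts, DESeq2, limma-voom, both other filters, the drawn-down libraries and without the 20 highest genes, and ran from 7 to 10 and from 8 to 12 with each library left out. They fell to 1 and 2 with only the most distal segment and to 5 and 7 with the most distal segment that has at least 100 bp of its own, a setting chosen after seeing the data; fewer genes could be tested there. With RNF genes alone the most distal segment gave 1 higher and 0 lower, and the one with at least 100 bp of its own 4 lower. TRIM genes gave 2 higher and 5 lower with total counts, 0 higher with the most distal segment, 1 higher with the one with at least 100 bp of its own, 1 lower without a filter and 5 lower with at least 10 counts in every library, and each library left out gave 2 to 4 higher and 1 to 4 lower, with 2 higher without ASO library 5 or CTRL library 4 and 1 lower without ASO library 4 or 5 or CTRL library 4 or 5. On the distal segment, upper quartile scaling gave 2 higher, and each library left out gave 1 to 2 higher and 0 to 2 lower, the 0 without ASO library 5 (3 at an unadjusted p under 0.05), 1 lower without CTRL library 1, 2, 4 or 5 and 2 higher without ASO library 4 or CTRL library 2. DESeq2 and limma-voom each gave 1 higher and 2 lower there. Member segments were 8 higher with total counts and 11 to 17 with a library left out. Segment usage gave 4 to 8 higher and 8 to 12 lower with a library left out, with 4 without ASO library 3 or CTRL library 4. The other ubiquitin pathway genes gave 2 higher with total counts, 10 with upper quartile scaling and with DESeq2, 4 to 7 with a library left out, 0 higher and 3 lower on the most distal segment, and 1 and 9 on the one with at least 100 bp of its own. Each count of 0 on the most distal segment is from edgeR. At an unadjusted p under 0.05 these were 1 for RNF genes lower, 2 for TRIM genes higher and 2 for pathway genes higher, and DESeq2 and limma-voom also gave 0 adjusted calls for each of the 3. The cause of the differences between scalings was not tested.

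With the replicate number as a block, 7 members were higher and 10 lower, TRIM genes gave 2 higher, the distal segment 0 higher (5 at an unadjusted p under 0.05 in edgeR), member segments 10 higher and the other pathway genes 3 higher. The numbers are not shown to pair the libraries: correlations of same-numbered libraries were −0.43, 0.06, 0.05, 0.06 and 0.16, and no library correlated best with its own number.

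No member past the threshold changed sign. Values with a sign that did change were Rnf7 (−0.12 with total counts, −0.10 on the most distal segment, −0.030 to 0.16 with a library left out), Rnf123 (−0.094 with total counts), Rnf19a (0.050 with upper quartile, 0.0043 with DESeq2, 0.27 on the most distal segment, −0.11 to 0.066 with a library left out) and Rnf216 (0.024 with RLE, 0.080 with upper quartile, 0.035 with DESeq2, 0.027 without a filter, 0.027 without the 20 highest genes, 0.46 on the most distal segment, −0.059 to 0.063 with a library left out). On the most distal segment Rnf11 was at 0.17 and Rnf115 at 0.20. On the one with at least 100 bp of its own, Rnf11 was at 0.28, Rnf115 at 0.31, Rnf167 at 0.031, Rnf19a at 0.38, Rnf144b at 0.065, Trim33 at 0.036 and Rnf216 at 0.57. A call was lost without CTRL library 4 for Trim8 (edgeR BH-adjusted p = 0.052), without any 1 of 4 libraries for Rnf166, 7 for Rnf6, 5 for Trim26, 6 for Trim27, 3 for Trim41 and 8 for Trim44, ASO library 5 being among these for each of the 6. Among the genes named that did not pass, 7 reached the threshold under at least 1 other setting: Rnf11 and Rnf5 under 3, Trim33 under 3 and Trim35 under 6, and Rnf144b, Rnf146 and Rnf170 under 1 each. For Rnf5, Trim33 and Rnf146 these include leaving out ASO library 4, ASO library 2 and CTRL library 3. Depth limits what can be said of the 88 members that were not tested.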
